A study of Mus musculus with 20 samples.

Results

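In mouse zygotes, 556 tiles of 100 bp were methylated in sperm and nearly unmethylated in the male pronucleus of untreated wild-type zygotes. The tiles were chosen by their measured levels: 75% or more in both Sperm libraries and 25% or less in both libraries of WT-Pat, the male pronuclei of wild-type zygotes given a mock treatment. A tile entered only with at least 2 cytosine positions of 5 or more reads and 10 calls in each Sperm and male pronuclear library, on an autosome. Of 61688 such tiles, 9181 were at 75% or more in both Sperm libraries, and 556 of these 9181 (6.06%) also met the limit in WT-Pat. They are called the low tiles here, and the remaining 8625 are called the other sperm-methylated tiles. The levels in Sperm and WT-Pat made the choice and are given as a description only. What happened to the low tiles elsewhere was read in CKO-Pat, WT-Pat-Aphi and CKO-Pat-Aphi, whose 6 libraries did not choose them.

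The study measured methylation by reduced representation bisulfite sequencing, in which MspI fragments are converted with bisulfite and each read reports a cytosine as methylated or unmethylated. The male pronuclear groups were CKO-Pat-Aphi, CKO-Pat, WT-Pat-Aphi and WT-Pat, beside the matching female pronuclei (CKO-Mat-Aphi, CKO-Mat, WT-Mat-Aphi and WT-Mat), Oocyte and Sperm, with 2 libraries in each of the 10 groups. CKO zygotes came from Zp3-Cre, f/- females and WT zygotes from f/f females, all superovulated at 7 to 10 weeks of age. The labels do not name the floxed gene; the title of the series names Tet3. Zp3-Cre acts in growing oocytes, and the sperm of every zygote came from C57BL/6J males. Aphi zygotes were kept in 3 µg/ml aphidicolin, an inhibitor of replicative DNA polymerases, starting at 5 h after fertilization, and mock zygotes were not. Pronuclei were taken at 12 h after fertilization and frozen at 13 h, typically about 20 to a library with 21 cycles of PCR. The labels do not say whether 2 libraries of a group came from separate females, so the spread between them may be technical.

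Shortly after fertilization the sperm-derived genome loses much of its cytosine methylation while still in the male pronucleus. Tet3, stored in the egg, oxidizes 5-methylcytosine to 5-hydroxymethylcytosine and further products, and replication without maintenance dilutes methylation on the new strands. Bisulfite sequencing reads 5-methylcytosine and 5-hydroxymethylcytosine alike as methylated, so the levels below hold both.

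Libraries held 22431861 to 68056783 calls. All the mock pronuclear files list chromosomes in sorted order and no aphidicolin or gamete file does. File preparation and treatment therefore cannot be told apart in comparisons of aphidicolin with mock. File preparation is likewise mixed into comparisons of mock pronuclei with gametes, such as CKO-Pat against Sperm. Aphidicolin and Sperm files do not differ in this sorting. Tiles that were methylated in oocytes but not in sperm (2239 tiles) averaged 10.7% in CKO-Pat-Aphi 1 and 11.5% in CKO-Pat 1, against 3.43% to 5.20% in the other male pronuclear libraries of WT and 5.11% and 4.92% in CKO-Pat-Aphi 2 and CKO-Pat 2. They averaged 3.06% and 2.95% in Sperm.

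In WT-Pat the low tiles averaged 3.20% in replicate 1 and 8.64% in replicate 2, against 95.5% and 95.4% in Sperm. Exactly 0% was read at 443 of the 556 (79.7%) in WT-Pat 1 and at 253 (45.5%) in WT-Pat 2, and 213 (38.3%) read 0% in both. The libraries did not contribute alike to the choice: 2583 sperm-methylated tiles (28.1%) met the limit in WT-Pat 1 and 1345 (14.6%) in WT-Pat 2. At the limit, the 127 low tiles whose higher WT-Pat level was above 20% averaged 60.1% in CKO-Pat, and the 157 tiles just outside it, at above 25% to 30%, averaged 57.4%. The 23 low tiles whose lower Sperm level was under 80% averaged 47.4% in CKO-Pat, and the 33 tiles just under the Sperm limit averaged 45.2%.

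In CKO zygotes the low tiles averaged 57.9% in CKO-Pat 1 and 61.3% in CKO-Pat 2, a group mean of 59.6% ± 2.40 (SD, n = 2 libraries), against 5.92% ± 3.84 in WT-Pat. The choice held WT-Pat low, so this difference is not read as one between genotypes. Over the other sperm-methylated tiles CKO-Pat averaged 67.6% and WT-Pat 58.4%, a difference of 9.15 points. Tiles low in both WT-Pat libraries had been taken out of that set, which raises its WT-Pat mean. The 9.15 points are therefore not free of the choice either. The near-complete loss in the description of the tiles is likewise a property of the 2 libraries that chose them. Levels in CKO-Pat were spread widely: the lower and upper quartiles of the low tiles were 43.4% and 77.5% in replicate 1, and 46.1% and 80.3% in replicate 2. Only 5 of 556 tiles (0.899%) were at 25% or less in both CKO-Pat libraries, against 54 of 8625 other tiles (0.626%), while 59 (10.6%) were at 75% or more in both, against 21.9% of the others.

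**Figure D1:**
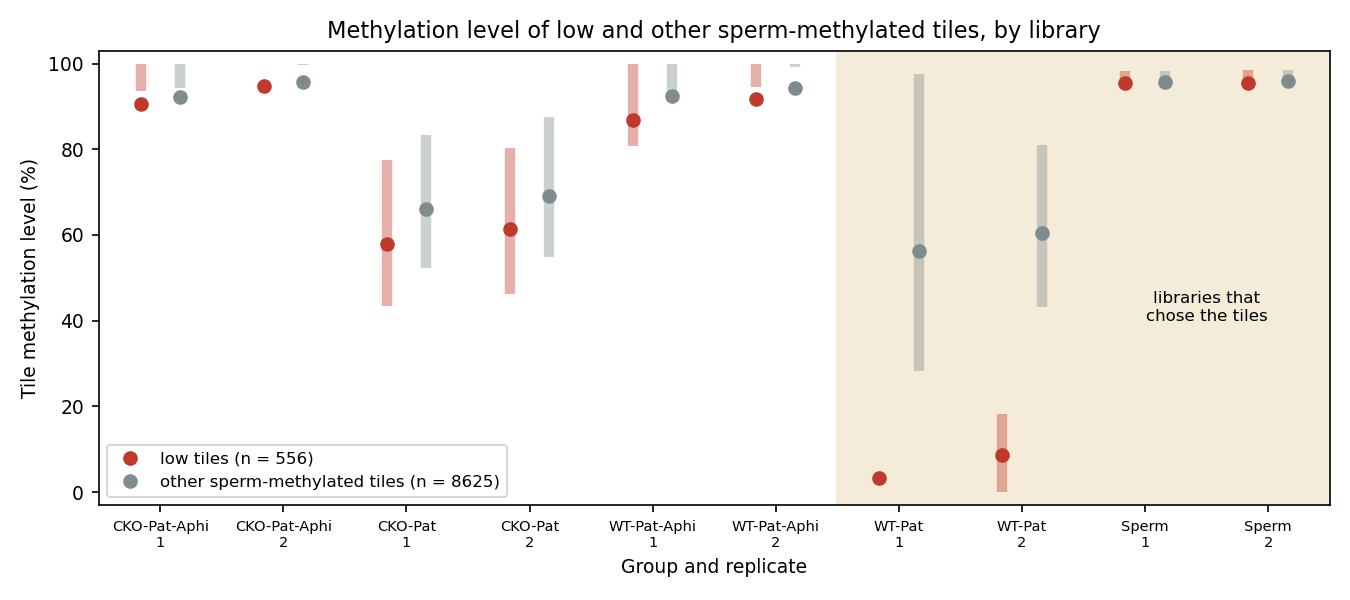
Methylation level (%) of the 556 low tiles (red) and 8625 other sperm-methylated tiles (grey) in each library; points are means over tiles and bars span the lower to the upper quartile. In the shaded WT-Pat and Sperm libraries the choice fixed the levels; in CKO-Pat the low tiles averaged 57.9% and 61.3%, against 66.1% and 69.1% for the others.

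The low tiles were also lower than the other sperm-methylated tiles where the choice had no part. In CKO-Pat they averaged 59.6% and the others 67.6% ± 2.13 (SD, n = 2), a difference of -8.16 points in replicate 1 and -7.79 points in replicate 2. In WT-Pat-Aphi the differences were -5.49 and -2.55 points. By level in Sperm, they were -15.2 and -9.45 points at 75% to 90% (62 low tiles). They were 0.242 and 0.646 points at 90% to 95% (76 low tiles) and -5.61 and -2.15 points at 95% to 98% (261). At 98% to 100% (157 low tiles) they were -3.14 and -0.986 points, and with a Sperm limit of 90% -4.07 and -1.55 points. In CKO-Pat the same classes gave, in order of rising level, -16.3 and -12.8, -9.37 and -0.723, -8.38 and -8.47, and -3.72 and -7.86 points. In CKO-Pat-Aphi the differences were -1.73 and -0.904 points. Every one of the 6 libraries that did not choose the tiles gave a lower mean for the low tiles. This difference between sets of tiles within a library was not tested. For comparisons between groups, 2 libraries against 2 allow no exact two-sided test below p = 0.333. More of the low tiles fell under 50% in both CKO-Pat libraries, at 44 of 556 (7.91%, exact 95% binomial interval 5.81% to 10.5%) against 502 of 8625 (5.82%, interval 5.34% to 6.34%); the intervals overlap, and they cover the counting of tiles only.

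The gap was graded with the number of WT-Pat libraries in which a tile was low. Sperm-methylated tiles low in neither (5809 tiles) averaged 70.03% in CKO-Pat, those low in 1 (2816 tiles) 62.5%, and those low in both 59.6%. WT-Pat-Aphi averaged 94.0%, 91.9% and 89.3% in the same order, and CKO-Pat-Aphi 94.3%, 93.4% and 92.7%. Both replicates of each group kept this order.

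**Figure D2:**
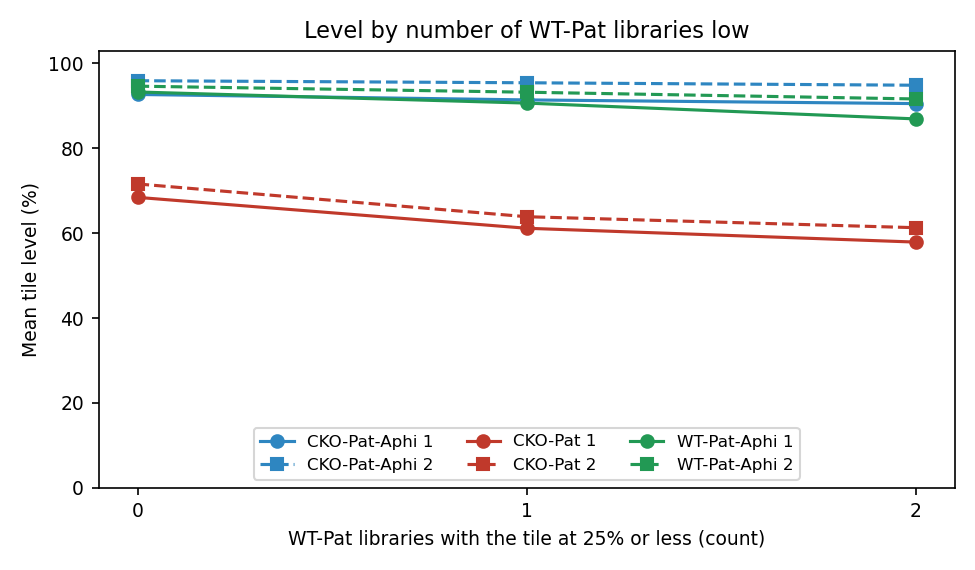
Mean level (%) over sperm-methylated tiles, by how many WT-Pat libraries read the tile at 25% or less; each line is 1 library. CKO-Pat averaged 57.9% and 61.3% in tiles low in both, against 68.4% and 71.6% in tiles low in neither.

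The same tile was only loosely repeated between libraries of 1 genotype. Tiles chosen by WT-Pat 1 alone averaged 48.8% in WT-Pat 2, against 60.8% for the rest, a difference of -12.03 points. Tiles chosen by WT-Pat 2 averaged 40.8% in WT-Pat 1, against 55.2%, a difference of -14.4 points. Chosen in the same way by one CKO-Pat library and read in the other, tiles differed from the rest by -6.90 and -7.12 points. Across the 9181 tiles, which share fragments and depth, Spearman's rho was 0.27 between the WT-Pat libraries, 0.22 between the CKO-Pat libraries and 0.17 to 0.26 between a WT-Pat and a CKO-Pat library. Across the 556 low tiles it was 0.047 between the CKO-Pat libraries, and at 99 of them these differed by over 50 points. Neither value was computed for the other sperm-methylated tiles alone, so neither is read as particular to the low tiles.

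With aphidicolin the low tiles stood near their sperm level. WT-Pat-Aphi averaged 86.9% and 91.6%, a group mean of 89.3% ± 3.32 (SD, n = 2), and CKO-Pat-Aphi averaged 90.5% and 94.9%, a mean of 92.7% ± 3.06, against 95.5% in Sperm. The median low tile read 100% in each of the 4 aphidicolin libraries. WT-Pat-Aphi 1, the lowest of them, also had the fewest calls, a median of 39 at the low tiles. At 75% or more in both libraries stood 390 low tiles (70.1%) in WT-Pat-Aphi, against 81.6% of the other tiles, and 431 (77.5%) in CKO-Pat-Aphi, against 84.2% of the others. In all 4 aphidicolin libraries 314 low tiles (56.5%) were at 75% or more, against 69.8% of the others, and 8 (1.44%) were under 50% in at least 2 of the 4, against 52 others (0.603%).

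Within CKO zygotes, CKO-Pat-Aphi was higher than CKO-Pat by 33.1 points over the low tiles, and by 29.2 to 37.0 points between single libraries. Both CKO-Pat-Aphi libraries were above both CKO-Pat libraries at 378 of the 556 tiles (68.0%), against 66.6% of the other sperm-methylated tiles, so the non-overlap was about as common in either set. A quasi-binomial logistic model fitted to all 61688 tiles, with Benjamini-Hochberg adjustment and a difference of at least 10 points required, called 0 low tiles, against a background of 0.0% of all tiles and 0.0% of the other sperm-methylated tiles. At an unadjusted p under 0.05, 164 low tiles (29.5%) were higher in CKO-Pat-Aphi, against 26.0% of the others and 4.72% of all tiles. limma on arcsine square roots called 63 low tiles higher (11.3%), against 1.76% of all tiles and 11.1% of the other sperm-methylated tiles. The median difference was 32.3 points in the low tiles and 25.9 points in the others.

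Under aphidicolin, CKO-Pat-Aphi was above WT-Pat-Aphi by 3.42 points over the low tiles and by 0.722 points over the others. In the low tiles, single libraries differed by -1.09 to 7.94 points, so the difference was within the spread between libraries. The logistic model called 0 of the low tiles in either direction, 0.0% of all tiles and 0.0% of the other sperm-methylated tiles. At an unadjusted p under 0.05, 9 low tiles were higher (1.62%), against 0.499% of the others and 0.671% of all tiles, and 2 were lower (0.36%), against 0.383% and 0.434%. limma called 0 low tiles, against 0.0632% of all tiles and 0.0696% of the others.

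Against Sperm, CKO-Pat was lower by 35.9 points over the low tiles and by 28.2 points over the others; single libraries gave -37.6 to -34.1 points in the low tiles. Both CKO-Pat libraries were below both Sperm libraries at 447 low tiles (80.4%), against 75.0% of the others. Such non-overlap was not counted over all tiles, here or for CKO-Pat-Aphi against CKO-Pat. The logistic model called 11 low tiles lower (1.98%), against 0.183% of all tiles and 1.17% of the other sperm-methylated tiles. These calls ended, at 0, without either Sperm replicate; they were 1 with dispersion floored before shrinkage, 2 with all 10 libraries in the fit, and 57 and 59 without CKO-Pat-Aphi replicate 1 or 2. limma called 109 (19.6%), against 3.15% of all tiles and 19.8% of the others. The share called by limma was thus close to that of the other sperm-methylated tiles. Of the 11 tiles, 5 were called by both models. The lowest adjusted p of the logistic model, 0.00546, was at chr8:124642501-124642600 (mm9), which read 15.2% and 42.5% in CKO-Pat against 98.6% and 98.04% in Sperm. At chr3:79336901-79337000, also called by the logistic model (adjusted p = 0.0468) but not by limma (adjusted p = 0.628), the CKO-Pat libraries read 100% and 0%. Both tiles were named after their values were seen.

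WT-Pat-Aphi was lower than Sperm by 6.18 points over the low tiles and 2.50 points over the others, while the median tile difference had the opposite sign, at 0.864 and 1.52 points. The logistic model called 0 low tiles lower, 0.0% of all tiles and 0.0% of the others, with 13 (2.34%) at an unadjusted p under 0.05, against 0.812% of the others and 0.37% of all tiles. limma called 5 lower (0.899%), against 0.357% of all tiles and 0.51% of the others. CKO-Pat-Aphi was lower than Sperm by 2.75 points over the low tiles and 1.77 points over the others, again with medians of the opposite sign, 1.52 and 1.69 points. There the logistic model again called 0 low tiles lower, 0.0% of all tiles and 0.0% of the others, with 5 (0.899%) at an unadjusted p under 0.05, against 1.09% of the others and 0.266% of all tiles. limma called 1 lower (0.18%), against 0.233% of all tiles and 0.278% of the others. Calls in the other direction were also made. In WT-Pat-Aphi the logistic model called 164 of all 61688 tiles higher than in Sperm, with 0 low tiles and 0 of the 8625 others. limma called 2 of the 556 low tiles higher, against 334 of all tiles and 27 of the others. In CKO-Pat-Aphi the logistic model called 193 of all tiles higher, again with 0 low tiles and 0 others. There limma called 3 low tiles higher, against 294 of all tiles and 22 others. A call needed a rise of 10 points, and only 62 low tiles averaged under 90% in Sperm. The choice thus left little room for such calls, and these counts are not read as a result about the low tiles.

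**Figure D3:**
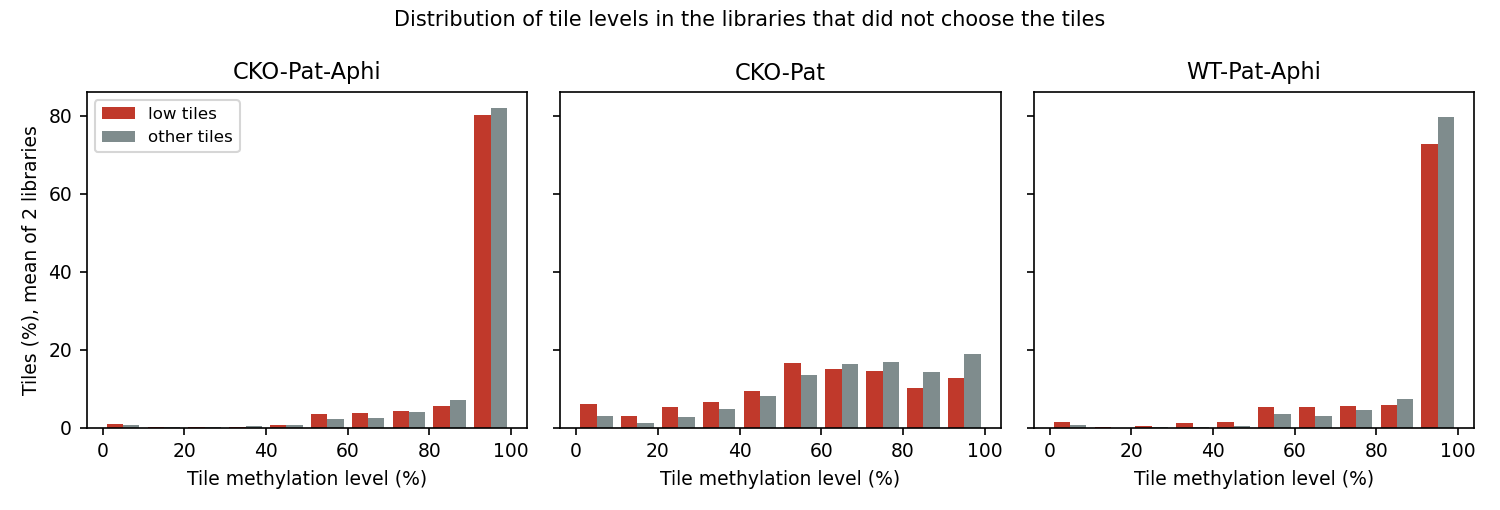
Share of tiles (%, mean of 2 libraries) by methylation level (%), in steps of 10 points, for low tiles (red) and other sperm-methylated tiles (grey). In CKO-Pat levels spread over the whole range, while with aphidicolin most tiles of either set lie in the top step.

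Many tile levels were exactly 0% or 100%. In the aphidicolin libraries 65.6% to 76.6% of the low tiles were at an exact end, and in CKO-Pat 12.4% and 15.5%, against 8.81% and 10.3% in Sperm. The other sperm-methylated tiles stood at an end in 69.0% to 73.1% under aphidicolin. Of these others, 39.5% stood at an end in WT-Pat 1 (16.6% at 0% and 22.9% at 100%) and 13.2% in WT-Pat 2. Readings of 0% in WT-Pat 1 were thus not confined to the low tiles. The low tiles had fewer calls than the others: a median of 74 in WT-Pat 1 and 96 in WT-Pat 2, against 130 and 190. The lower of the WT-Pat depths moved with membership, since 16.7% of sperm-methylated tiles with 10 to 29 calls there were low tiles, and 2.49% of those with 120 or more. Within the depth classes, the difference in CKO-Pat between low and other tiles was -6.32, -4.31, -9.78 and -6.59 points, in order of rising depth. The part of depth in the choice was not tested further.

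The low tiles held a median of 3 cytosine positions and the others 4. They made up 7.05% of the sperm-methylated tiles with 2 or 3 cytosines and 3.76% of those with 8 or more. On chromosomes they made up 4.09% (chromosome 17) to 8.19% (chromosome 18) of the sperm-methylated tiles. They were scattered, with 552 regions when tiles less than 500 bp apart were joined, of which 548 held 1 tile and 4 held 2. The other sperm-methylated tiles were not joined in this way, so the scatter is not read as particular to the low tiles. The 48 sperm-methylated tiles right beside a low tile averaged 61.0% in CKO-Pat and 43.3% in WT-Pat, against 67.6% and 58.6% for the 8498 tiles over 5000 bp away. The 12 tiles at 200 to 500 bp averaged 63.6% and 56.1%, and the 67 tiles at 600 to 5000 bp 67.1% and 50.4%. WT-Pat thus did not rise steadily with distance. The WT-Pat libraries chose the low tiles and adjoining tiles can share fragments, so WT-Pat levels beside them are not independent of the choice.

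Low tiles fell into both classes of oocyte methylation. Of those covered in Oocyte (24 were not), 246 (46.2%) were at 25% or less in both Oocyte libraries and 222 (41.7%) at 75% or more, against 43.2% and 41.1% of the others. In CKO-Pat the low tiles unmethylated in oocytes averaged 57.7% ± 4.45 and the others of that class 64.5%, and those methylated in oocytes averaged 62.5% ± 0.667 and the others 70.1% (SD, n = 2). In the class methylated in oocytes CKO-Pat 1 and 2 read 62.9% and 62.0% at low tiles, against 70.5% and 69.8% at the others. In the class unmethylated in oocytes they read 54.5% and 60.8%, against 61.2% and 67.9%. CKO-Pat-Aphi 1 and 2 read 86.2% and 94.5% at low tiles of that class, and 96.2% and 95.9% at those methylated in oocytes. CKO-Pat 1 and CKO-Pat-Aphi 1 are the libraries with 11.5% and 10.7% at tiles methylated in oocytes only. Any link between these values was not tested.

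The female pronuclei, which had no part in the choice, gave a smaller gap at the tiles methylated in oocytes. Low tiles averaged 78.5% and 81.9% in CKO-Mat, against 83.3% and 84.7% for the others, differences of -4.87 and -2.89 points. In WT-Mat they averaged 79.4% and 82.0%, against 82.5% and 86.0%, differences of -3.13 and -4.02 points. All 4 mock libraries were thus lower at the low tiles. Under aphidicolin the differences were 0.783 and -0.791 points in CKO-Mat-Aphi and 1.12 and -0.506 points in WT-Mat-Aphi, with no common direction, and in Oocyte 0.512 and -0.108 points. Of the low tiles, the aphidicolin libraries covered 162 to 182 here and the mock libraries 207 to 217, so the tiles read were not the same. The low tiles averaged 95.0% to 96.9% under aphidicolin, close to the upper end of the scale. Whether the mock and aphidicolin gaps differ was not tested.

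**Figure D4:**
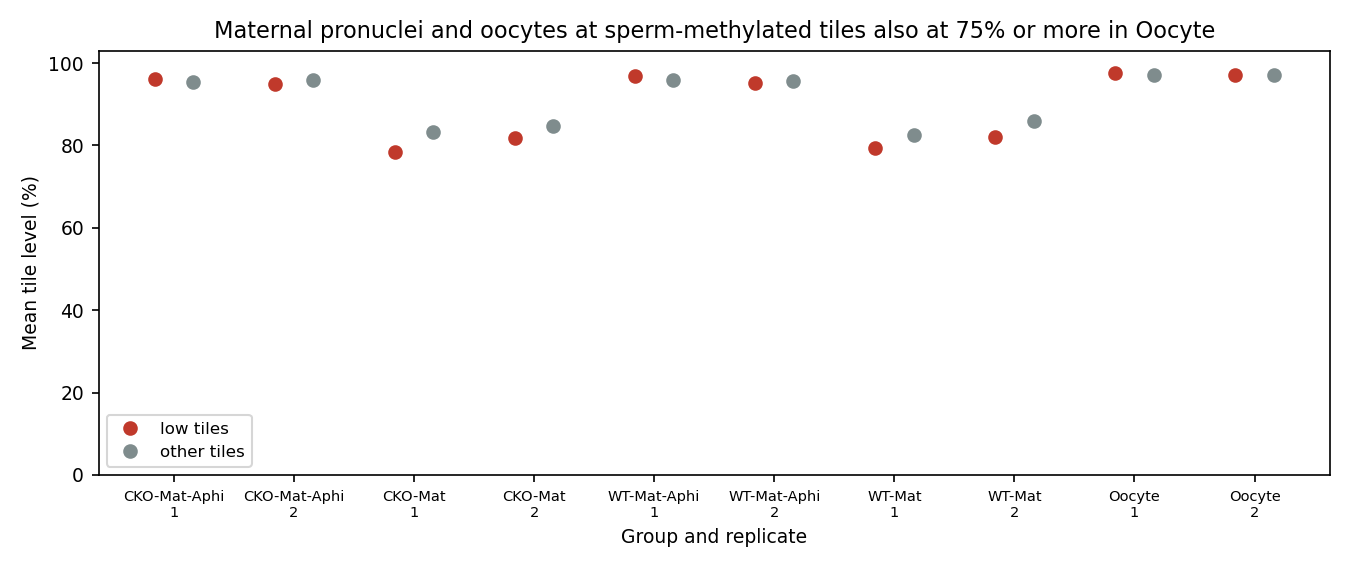
Mean level (%) in female pronuclei and oocytes at sperm-methylated tiles also at 75% or more in both Oocyte libraries, for low tiles (red) and others (grey). The 4 mock pronuclear libraries read 78.5% to 82.0% at low tiles and 82.5% to 86.0% at the others.

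Some single tiles, with coordinates in mm9, show the range. The lowest in CKO-Pat was chr1:137817601-137817700, which read 100% and 100% in CKO-Pat-Aphi, 0% and 14.3% in CKO-Pat, 100% and 83.3% in WT-Pat-Aphi, 0% in both WT-Pat libraries, and 97.4% and 96.7% in Sperm. Its levels rested on 63 and 237 calls in CKO-Pat. It was also the tile with the largest excess of CKO-Pat-Aphi over CKO-Pat, with an adjusted p of 0.389 in the logistic model. The next lowest in CKO-Pat were chr8:18790601-18790700 at 18.8% and 0%, chr5:145619301-145619400 at 0% and 24.3%, chr19:56591001-56591100 at 0% and 26.9%, and chr16:30397301-30397400 at 10.3% and 21.1%. The first 3 of these 4 read 100% in both CKO-Pat-Aphi libraries. In CKO-Pat 1 the tile on chromosome 5 rested on 16 calls and the tile on chromosome 8 on 32. At the other end, 10 low tiles read 100% in both CKO-Pat libraries. Among them chr5:122765101-122765200 read 100% in all 4 aphidicolin libraries and 22.5% and 0% in WT-Pat.

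A few tiles were low with aphidicolin as well. The lowest over the 4 aphidicolin libraries was chr12:103695201-103695300, at 26.7% and 100% in CKO-Pat-Aphi, 12% and 36.6% in CKO-Pat, 0% and 0% in WT-Pat-Aphi and in WT-Pat, and 78.1% and 78.4% in Sperm. chr18:75595001-75595100 followed, with 0% and 69.5% in CKO-Pat-Aphi and 0% and 72.6% in WT-Pat-Aphi. The CKO-Pat-Aphi libraries stood far apart at both tiles, and the WT-Pat-Aphi libraries at the second. Some of these levels rested on few calls. The tile on chromosome 12 had 12 calls in WT-Pat-Aphi 1 and 24 in WT-Pat 1. Its adjusted p for WT-Pat-Aphi against Sperm was 0.755 in the logistic model. The tile on chromosome 18 had 22 calls in WT-Pat-Aphi 1. The 4 regions of 2 low tiles were chr7:30101201-30101400, chr10:21639601-21639800, chr18:57548101-57548300 and chr19:56591001-56591200. Both CKO-Pat-Aphi libraries were above both CKO-Pat libraries in 2 of the 4. The region on chromosome 19 read 97.2% and 100% in CKO-Pat-Aphi, against 16.8% and 41.2% in CKO-Pat. The region on chromosome 10 read 100% and 94.2% in CKO-Pat-Aphi, against 26.8% and 82.8% in CKO-Pat. On chromosome 18 the values were 100% and 100% in CKO-Pat-Aphi and 75% and 100% in CKO-Pat. On chromosome 7 they were 36.4% and 100% in CKO-Pat-Aphi and 67.6% and 78.7% in CKO-Pat, and its first tile read 0% in CKO-Pat-Aphi 1, against 79.6% and 85.0% in CKO-Pat.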

How the data were processed

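Reads were trimmed with Trim Galore and aligned to mm9 with Bismark 0.10.1, per the submitters' processing notes. The deposited files give, per the file layout, a percent methylation and counts of methylated and unmethylated calls for each cytosine position; the authors' percent equalled the level recomputed from the counts. Levels of 100-bp tiles were computed from the counts as methylated over all calls. The members and lists were chosen with earlier results of these data known. No mm9 annotation or sequence was used here, so tiles are given by position, and where fewer than 25 regions had 2 tiles, single tiles were ranked instead; ties at 100% were broken by mean calls, after values were seen.

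Tiles were tested with a quasi-binomial logistic model (R 4.3.3, limma 3.58.1 for shrinkage of the dispersion), Benjamini-Hochberg adjusted over 61688 tiles. CKO-Pat-Aphi, CKO-Pat and WT-Pat-Aphi entered 1 fit and, with Sperm, another. WT-Pat entered neither. Unlike the design as first written, dispersion came from groups expecting at least 5 calls of both kinds in each library; every tile then took the trend's dispersion. A call needed adjusted p under 0.05 and 10 points. On simulated data the logistic model called few of the changes put in, and many calls of limma on arcsine square roots fell on unchanged tiles. The simulation gave every library, Sperm included, a spread taken from the dispersion of the logistic model. Whether this matches the spread between the Sperm libraries was not tested. Reads are PCR copies without molecular identifiers, so intervals cover counting error only. Same-numbered libraries were not taken as pairs.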

Additional observations from a re-analysis of the deposited data

How the results depend on the processing

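The mean levels of WT-Pat-Aphi and CKO-Pat-Aphi over the low tiles moved by less than their SD under all 12 alternatives run for each, and that of CKO-Pat under 11 of 12. Some of the 12 could not have moved a mean so far. Leaving out 1 of a group's own 2 libraries always shifts its mean by less than the SD. No low tile had over 10 times the median calls, so leaving out such tiles changed no mean. The number of low tiles was 113 with 3 positions and 30 calls, 262 with a WT-Pat limit of 10%, and 577 to 2583 when 1 Sperm or WT-Pat library chose alone; without WT-Pat replicate 1 it was 1345. Leaving out 1 library gave a CKO-Pat mean of 57.9% to 62.6%. With 1 library left out, the share at 25% or less in CKO-Pat was 0.852% to 11.9%, the share under 50% was 7.59% to 32.7%, and the shares at 75% or more were 68.1% to 85.1% in WT-Pat-Aphi and 75.7% to 91.7% in CKO-Pat-Aphi; a single library meets a limit more often than 2 do. A Sperm limit of 90% gave 74.6% and 82.6% for WT-Pat-Aphi and CKO-Pat-Aphi.

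The number of low tiles called lower in CKO-Pat than in Sperm, 11, depended on the fit: 4 with 3 positions and 30 calls, 4 with a WT-Pat limit of 10%, 4 with the replicate block, 1 with dispersion floored before shrinkage, 2 with all 10 libraries in the fit, 109 with limma, and 0 to 59 with 1 library left out. Dispersion from all groups, an alternative chosen after seeing the data, gave 75. limma also called 63 low tiles higher in CKO-Pat-Aphi than in CKO-Pat, 5 lower in WT-Pat-Aphi than in Sperm and 1 lower in CKO-Pat-Aphi than in Sperm, where the main fit called 0; leaving out 1 library gave 0 to 3 for the last. The cause was not tested. The difference of low from other tiles kept its sign in CKO-Pat under 10 choices of tiles, at -8.53 to -6.23 points in replicate 1 and -12.2 to -6.23 points in replicate 2, and in WT-Pat-Aphi, at -6.59 to -2.81 and -3.41 to -1.51 points; in CKO-Pat-Aphi 2 it turned to 0.0564 with 3 positions and 30 calls. Differences between replicates 1 and 2 correlated across tiles between groups by -0.0033 to 0.0389, so the numbers are not shown to pair libraries.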
